A study of Mus musculus with 18 samples.

Results

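Hippocampal transcripts of *Ccny* KO mice trained in the Morris water maze (KO_OL, original learning) were compared with those of untrained *Ccny* KO mice (KO_Basal), gene by gene over all 15329 genes listed. The comparison took the 3 KO_OL and the 3 KO_Basal libraries, 6 of the 18 libraries of the series, by the genotype and training in their labels. Each library is labelled as hippocampus of a C57BL/6J mouse aged 8 to 10 weeks. With 3 mice and 3 libraries in each group, the libraries are called mice 1 to 3 below. Both groups carry the *Ccny* knockout (KO), and they differ in training: the KO_OL mice searched for a hidden platform over 5 training days with 4 trials per day, followed by a probe test without the platform on day 6, and the KO_Basal mice are labelled as untrained. Neither the making of the knockout allele nor the time between the last swim and tissue collection is given in the sources used here, so learning, swimming, handling and hour of collection cannot be told apart. The paper names no library or sequencing batch, and its mapping rates were lower for every KO_Basal library than for every KO_OL library. A batch difference cannot be told apart from training either. WT mice of the same strain and age, 3 without training (WT_Basal) and 3 after original learning (WT_OL), served to test where the change with training differed between genotypes, and the remaining libraries, taken after reversal learning, entered the fit through their spread alone. Between WT_Basal and WT_OL the mapping rates overlapped, and among WT_OL libraries only that of mouse 3 came near the KO_OL rates. In the comparison of changes a batch difference thus cannot be told apart from genotype.

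*Ccny* encodes cyclin Y, a cyclin that neurons hold at the postsynaptic side of excitatory synapses. When a hippocampal neuron is driven, calcium entry activates kinases that phosphorylate factors already bound at promoters, and a first wave of immediate early genes (*Fos*, *Fosb*, the *Egr* genes) is transcribed within minutes and fades within hours. A second, slower group of genes follows, whose products act at synapses and in secretion. Other programs respond to the state of proteins rather than to firing: heat shock factor 1 induces cytosolic chaperones when unfolded proteins accumulate in the cytosol, and the unfolded protein response induces chaperones of the endoplasmic reticulum (ER). Exercise, stress hormones and the hour of the day act on hippocampal transcripts as well.

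The promoters of 7 genes that carry the results below are shown so that the shared sequence can be seen beside the values. Each is a window of 300 bases from RefSeq on build GRCm38.p6, from 250 bases before to 50 bases after the transcription start, written 5′ to 3′ on the strand of the gene. In the first 3, genes for cytosolic chaperones, capitals mark GAANNTTC, the core of the heat shock element to which heat shock factor 1 binds.
*Hspa1a*, chr17:34972107-34972406, minus strand: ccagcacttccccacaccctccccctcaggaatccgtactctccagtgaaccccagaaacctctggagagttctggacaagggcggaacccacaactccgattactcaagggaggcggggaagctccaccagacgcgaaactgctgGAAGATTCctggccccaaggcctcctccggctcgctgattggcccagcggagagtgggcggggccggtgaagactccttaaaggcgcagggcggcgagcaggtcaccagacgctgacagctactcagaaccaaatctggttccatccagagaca
*Hspa1b*, chr17:34959189-34959488, minus strand: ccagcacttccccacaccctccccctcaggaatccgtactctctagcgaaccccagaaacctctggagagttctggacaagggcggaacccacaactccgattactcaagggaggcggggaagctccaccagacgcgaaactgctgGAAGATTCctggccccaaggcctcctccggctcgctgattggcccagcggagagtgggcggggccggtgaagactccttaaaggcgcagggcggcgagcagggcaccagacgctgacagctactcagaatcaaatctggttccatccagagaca
*Hsph1*, chr5:149636287-149636586, minus strand: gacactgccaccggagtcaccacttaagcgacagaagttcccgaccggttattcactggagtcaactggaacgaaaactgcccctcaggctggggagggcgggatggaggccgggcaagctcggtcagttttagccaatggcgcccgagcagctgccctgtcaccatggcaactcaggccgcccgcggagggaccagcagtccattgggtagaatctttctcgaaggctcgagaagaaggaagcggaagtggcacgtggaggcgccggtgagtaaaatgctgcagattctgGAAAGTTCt
In *Hsph1*, which has 2 windows, the match in the window shown lies in the 50 bases after the transcription start. The windows of *Hspa1a* and *Hspa1b* are equal at 98.7% of positions, and the genes encode nearly the same protein, so reads can be split between them and both are given as uncertain. In the promoter of *Hspa5*, which encodes the main chaperone of the ER, capitals mark the ER stress element, CCAAT and CCACG with 9 bases between them, that factors of the unfolded protein response recognise.
*Hspa5*, chr2:34771840-34772139, plus strand: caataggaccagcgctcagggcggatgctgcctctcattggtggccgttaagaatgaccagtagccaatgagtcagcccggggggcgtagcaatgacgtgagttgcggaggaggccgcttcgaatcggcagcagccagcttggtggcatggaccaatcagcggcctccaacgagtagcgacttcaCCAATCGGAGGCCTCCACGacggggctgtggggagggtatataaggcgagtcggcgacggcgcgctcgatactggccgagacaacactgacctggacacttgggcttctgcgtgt
In the last 3, genes induced by neuronal activity, capitals mark TGACG, the core of the cAMP response element (CRE), which reads CGTCA where it lies on the other strand.
*Fosb*, chr7:19309996-19310295, minus strand: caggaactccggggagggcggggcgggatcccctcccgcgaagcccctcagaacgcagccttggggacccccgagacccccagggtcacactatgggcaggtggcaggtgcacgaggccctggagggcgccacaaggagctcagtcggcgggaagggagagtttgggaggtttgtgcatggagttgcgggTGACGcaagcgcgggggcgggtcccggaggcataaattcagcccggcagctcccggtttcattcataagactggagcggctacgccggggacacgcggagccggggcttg
*Egr4*, chr6:85513540-85513839, minus strand: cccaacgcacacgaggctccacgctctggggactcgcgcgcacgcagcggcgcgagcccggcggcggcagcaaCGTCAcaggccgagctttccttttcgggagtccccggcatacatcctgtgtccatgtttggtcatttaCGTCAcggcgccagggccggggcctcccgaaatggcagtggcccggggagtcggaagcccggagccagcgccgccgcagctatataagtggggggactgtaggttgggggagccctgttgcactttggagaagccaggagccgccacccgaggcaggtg
*Per1*, chr11:69098699-69098998, plus strand: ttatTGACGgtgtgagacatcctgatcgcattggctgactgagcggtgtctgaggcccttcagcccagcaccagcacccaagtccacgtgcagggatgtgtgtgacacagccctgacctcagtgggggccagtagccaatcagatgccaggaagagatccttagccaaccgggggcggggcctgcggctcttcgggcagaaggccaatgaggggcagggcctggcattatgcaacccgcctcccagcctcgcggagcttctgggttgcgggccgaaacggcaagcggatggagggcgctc
Both strands were searched. GAANNTTC is in 7.86% of all 32851 promoter windows and in 10 of the 24 windows found for the cytosolic heat shock list. The ER stress element is in 39 of all windows (0.119%) and in 6 of the 15 windows of the ER list, those of *Calr*, *Creld2*, *Dnajc3*, *Hsp90b1*, *Hspa5* and *Pdia6*. TGACG is in 20.8% of all windows and in 17 of the 24 windows of the immediate early list. A gene can have several windows, of which the first is shown. A match is a description of the letters, and binding was not measured.

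Values are CPM, the reads of a gene scaled to a common library size after normalization by the trimmed mean of M-values, recovered from the log2(CPM + 1) values of the authors. The 6 libraries held 30073161 to 35976583 reads on listed genes, and 1 read was worth 0.0280 to 0.0325 CPM. Markers of CA1 (*Wfs1*) and CA3 (*Grik4*) neurons were present in every library, and KO_Basal mouse 1 stood apart with a summed level of 121 CPM over 10 hypothalamic genes against 3.71 to 13.6 CPM in the other 5 mice. A change is the difference of group means of log2(CPM + 1) from limma, given ± its SE, and it understates the fold of genes near 1 CPM. A gene was called at a Benjamini-Hochberg adjusted p under 0.05. With 3 against 3 an exact permutation test of 1 gene cannot give a two-sided p under 0.1, so the calls rest on the spread shared by all libraries.

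*Ccny*, the targeted gene, lay at 95.8, 90.5 and 89.6 CPM in KO_Basal and at 75.0, 74.0 and 76.0 CPM in KO_OL, against 158, 149.6 and 158 CPM in WT_Basal. Reads thus remained at the locus (chr18:9312304-9450154, minus strand, mm10) in every KO mouse, and all 6 KO mice were below every WT_Basal mouse. Within KO mice the level after training was lower in each mouse, by 0.29 ± 0.11 on the log2 scale, which was not called (adjusted p = 0.0574). WT_OL mice were at 113.5, 119.4 and 150.3 CPM. Their fall was of the same size, 0.29 ± 0.11, and was not called either (adjusted p = 0.0953).

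Training was accompanied by changes in many transcripts of KO mice, mostly small. Of 15329 genes 3600 (23.5%) were called, 1714 higher (11.2%) and 1886 lower (12.3%) in KO_OL, and 5609 passed an unadjusted p of 0.05. The called changes had a median size of 0.42 on the log2 scale. Over 1.5-fold there were 281 genes up and 441 down, over 2-fold 73 up and 33 down. By the criteria of the study, a fold over 1.5 with an unadjusted p under 0.05, 837 genes (5.46%) passed, 368 up and 469 down, and after correction of each library for GC content 325 up and 214 down. All 3 KO_OL mice were above all 3 KO_Basal mice for 3707 genes (24.2%) and below them for 3774 genes (24.6%). The count of calls was 2228 without KO_Basal mouse 1, 2313 without KO_OL mouse 1 and 2310 without KO_OL mouse 3. WT mice moved at fewer genes: 595 (3.88%) were higher and 862 (5.62%) lower in WT_OL than in WT_Basal, and 196 and 149 after correction for GC content. Without WT_Basal mouse 1, WT_Basal mouse 3, WT_OL mouse 2 or WT_OL mouse 3 the WT count was 716, 629, 905 or 2496. Of the genes called higher in KO mice 348 were also called higher in WT mice, which is 20.3% of the KO list and 58.5% of the WT list, and 639 were called lower in both, 33.9% and 74.1% of the lists. No gene was called in opposite directions. Of the 3600 genes called in KO mice 90.1% had the same sign of change in WT mice, and 89.5% had a larger size in KO mice, the group that chose them.

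**Figure D1:**
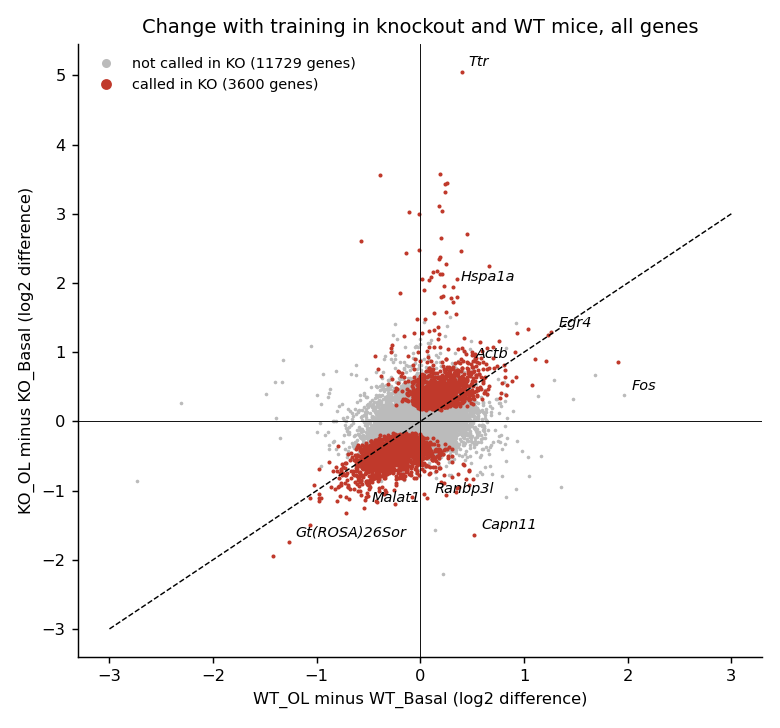
Each point is a gene, with its log2 difference between trained and untrained WT mice on the x axis and between trained and untrained KO mice on the y axis; red points are the 3600 genes called in KO mice and the dashed line marks equal change. *Ttr* lies at 5.05 in KO and 0.40 in WT mice, *Hspa1a* at 1.94 and 0.32, *Fos* at 0.38 and 1.97, and *Egr4* near the line at 1.29 and 1.26.

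Immediate early transcription factors were higher after training. Of the 23 listed 12 rose (52.2%, against 11.2% of all genes) and 2 fell (8.70%, against 12.3%). The median log2 difference was 0.38 against -0.01 over all genes. *Egr4*, a zinc finger factor that follows neuronal firing, lay at 11.03, 12.5 and 15.7 CPM in KO_Basal and at 36.5, 28.9 and 34.5 CPM in KO_OL. Every trained mouse was above every untrained one, a rise of 1.29 ± 0.12 (adjusted p = 1.22e-05). *Fosb*, a partner of Jun proteins in the AP-1 factor, went from 3.75, 5.54 and 5.597 CPM to 14.9, 12.8 and 11.7 CPM, a rise of 1.25 ± 0.15 (adjusted p = 5.81e-05). *Egr1* rose by 0.90 ± 0.16 from 77.3, 112 and 145 CPM to 225, 196 and 186 CPM, and *Jund* by 0.45 ± 0.09. These 4 were called under every alternative processing run. TGACG was in a promoter of 14 of the 18 listed genes with a window, of which 8 rose, and 2 of the other 4 rose. Without KO_Basal mouse 1, 7 members of the list were called higher, and without KO_OL mouse 1, 6 were. Correction for GC content left 8 called higher, and correction for GC content and length 9. In WT mice 13 of the list were called higher and none lower.

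*Fos*, the partner of Jun most used as a mark of recent firing, did not follow *Fosb* in KO mice. It lay at 10.6, 15.6 and 21.9 CPM in KO_Basal and 26.9, 19.0 and 16.4 CPM in KO_OL, and the mice overlapped (0.38 ± 0.22, adjusted p = 0.225). In WT mice *Fos* was 7.59, 5.73 and 6.43 CPM before and 35.5, 29.1 and 22.4 CPM after training, a rise of 1.97 ± 0.22 (adjusted p = 1.43e-04). The untrained KO mice were each above the untrained WT mice, while the trained groups overlapped. *Arc*, whose protein acts in the endocytosis of AMPA receptors, was also less separated in KO than in WT mice, with 90.8, 172 and 188 CPM in KO_Basal, 317, 221 and 170.1 CPM in KO_OL, 89.3, 89.0 and 85.9 CPM in WT_Basal and 312, 381 and 196 CPM in WT_OL. *Npas4*, a factor induced by calcium entry, had a difference of -0.52 ± 0.28 in KO mice, which was not called, and rose by 1.04 ± 0.28 in WT mice (adjusted p = 0.0291). The KO change was smaller than the WT change with an unadjusted p of 9.42e-05 for *Fos*, 0.0136 for *Arc* and 0.00122 for *Npas4*, and none passed adjustment over all genes. *Fos* was named for its small p in this comparison, and *Arc* and *Npas4* after their values were seen. These unadjusted p-values therefore only describe the chosen genes. The *Fosb* and *Egr4* differences, 1.25 and 1.29 in KO mice, were 1.23 and 1.26 in WT mice.

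Of 21 activity-induced effectors, the products of the slower wave, 5 rose (23.8%, against 11.2% of all genes) and none fell (against 12.3%). *Nptx2*, a secreted pentraxin that gathers AMPA receptors, went from 19.6, 22.1 and 17.0 CPM to 41.9, 36.7 and 29.9 CPM (0.85 ± 0.14, adjusted p = 6.12e-04). *Vgf*, a secreted precursor of neuropeptides, went from 109.6, 118 and 126 CPM to 193, 206 and 187 CPM (0.73 ± 0.10, adjusted p = 1.72e-04). *Bdnf* overlapped between the groups, at 48.7, 53.9 and 51.5 CPM and 58.2, 44.2 and 40.1 CPM. The list had 3 calls without KO_Basal mouse 1 and 3 without KO_OL mouse 2. Among 12 feedback inhibitors of the MAPK pathway 4 rose (33.3%) and none fell. The rises were led by the ERK phosphatase gene *Dusp5* from 3.85, 6.17 and 5.99 CPM to 12.7, 9.97 and 12.03 CPM (adjusted p = 6.33e-04) and by *Spry4* (0.68 ± 0.12).

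Cytosolic heat shock chaperones were higher in trained KO mice: 10 of 21 rose (47.6%, against 11.2% of all genes) and none fell (against 12.3%). The median log2 difference was 0.44 against 0.08 in WT mice. *Hspa1a*, the inducible HSP70 (chr17:34969190-34972156, minus strand, mm10), lay at 4.58, 4.78 and 5.01 CPM in KO_Basal and 21.5, 22.2 and 20.1 CPM in KO_OL, a ratio of means of 4.44 and a rise of 1.94 ± 0.24 (adjusted p = 6.17e-05). The values of each group were close together and far from the other group. Its near copy *Hspa1b* went from 5.85, 8.39 and 6.51 CPM to 28.0, 24.9 and 25.0 CPM (1.78 ± 0.25). In WT mice *Hspa1a* was 5.46, 5.66 and 5.70 CPM before and 8.22, 4.84 and 9.33 CPM after training, which overlap. *Hsph1*, an HSP110 that recharges HSP70, went from 269, 274 and 272 CPM to 488, 470.4 and 434 CPM (0.77 ± 0.12, adjusted p = 2.90e-04) and *Dnajb1*, the HSP40 that hands clients to HSP70, from 50.5, 53.3 and 49.7 CPM to 94.4, 91.2 and 83.9 CPM (0.80 ± 0.10, adjusted p = 4.88e-05). *Dnajb1* rose in WT mice as well, from 45.3, 44.8 and 45.8 CPM to 65.7, 70.4 and 62.9 CPM (0.54 ± 0.10). The constitutive HSP70 gene *Hspa8* rose by 0.55 ± 0.08, the small heat shock protein gene *Hspb1* by 1.33 ± 0.27 and the co-chaperone gene *Bag3* by 0.84 ± 0.13, whereas *Hsp90aa1* had a difference of 0.17 ± 0.11 that was not called. Of 16 listed genes with a promoter window, 9 held GAANNTTC and 5 of these rose, and 3 of the other 7 rose. Leaving out any 1 of the 6 mice left 10 or more calls in the list, and correction for GC content left 13.

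Chaperones and folding enzymes of the ER were also higher. Of 17 genes 10 rose (58.8%, against 11.2% of all genes) and 1 fell (5.88%, against 12.3%). The median was 0.36 (0.13 in WT mice). *Hspa5*, or BiP, was 238, 244 and 235 CPM in KO_Basal and 419.6, 411 and 462 CPM in KO_OL, a rise of 0.84 ± 0.13 (adjusted p = 2.91e-04). *Pdia4*, a disulfide isomerase, went from 30.9, 33.7 and 32.0 CPM to 61.5, 63.2 and 73.5 CPM (1.01 ± 0.13, adjusted p = 1.07e-04), and *Hyou1*, an HSP110 of the ER, from 92.6, 91.1 and 91.7 CPM to 139.7, 135 and 149.7 CPM (0.62 ± 0.10, adjusted p = 4.40e-04). For these 3 every trained mouse was above every untrained one. *Xbp1*, which encodes a transcription factor of the response, rose by 0.46 ± 0.07. The member that fell was *Dnajb9*, a co-chaperone of BiP, from 62.4, 62.0 and 56.7 CPM to 35.5, 40.0 and 37.6 CPM (-0.66 ± 0.08, adjusted p = 5.34e-05). *Atf4*, the factor of the branch shared with amino acid shortage, overlapped between the groups (-0.05 ± 0.08). Of the 6 genes with the ER stress element in their window 4 rose, and of the 9 without it 4 rose. The list kept 9 or more calls without any 1 mouse.

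**Figure D2:**
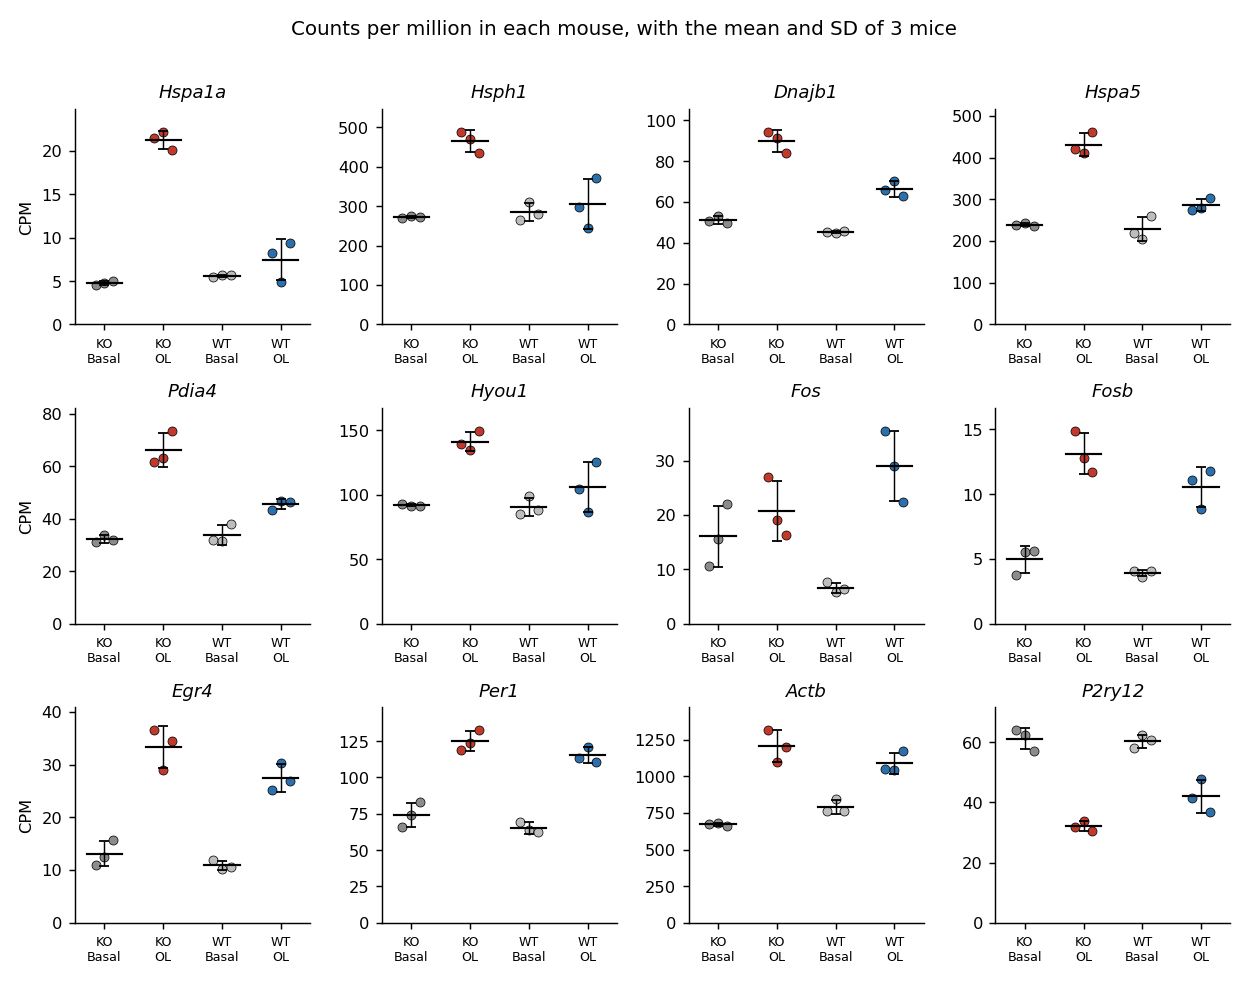
CPM of 12 genes in each mouse of the 4 groups, with each point 1 mouse, the bar the mean and the whiskers the SD of 3 mice, and every y axis from 0. *Hspa1a*, *Hsph1*, *Hspa5*, *Pdia4* and *Hyou1* are higher in every trained KO mouse than in every other mouse shown, *Fos* overlaps between the KO groups, and *P2ry12* is lower in the trained mice of both genotypes.

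Clock genes and genes induced by glucocorticoids were compared because tissue hour and stress can differ with training. Of 22 clock genes 10 rose (45.5%) and 1 fell (4.55%), against 11.2% and 12.3% of all genes. *Per1*, a repressor of the clock that light, cAMP and glucocorticoids induce, went from 66.1, 73.8 and 82.7 CPM to 119, 124 and 133 CPM (0.75 ± 0.08, adjusted p = 2.66e-05) and *Per2* from 29.6, 37.0 and 38.9 CPM to 58.3, 60.2 and 63.5 CPM (0.78 ± 0.10, adjusted p = 6.96e-05). *Arntl*, which encodes the activator BMAL1 and peaks opposite to the *Per* genes, overlapped (-0.23 ± 0.10, not called). *Per1* rose by 0.81 in WT mice. Of 21 glucocorticoid genes 7 rose (33.3%) and 1 fell (4.76%). *Sgk1*, a kinase induced by the hormone, went from 81.8, 91.8 and 63.1 CPM to 142, 204 and 184 CPM (1.15 ± 0.29, adjusted p = 0.00969) and *Tsc22d3*, or GILZ, from 74.0, 81.8 and 74.5 CPM to 102, 126 and 111 CPM (0.55 ± 0.10). *Fkbp5*, a co-chaperone of the receptor, was called at 0.38 ± 0.13 (adjusted p = 0.0426), and lost the call when any 1 of the 6 mice was left out. The clock list had 5 calls higher without KO_Basal mouse 1, and 6 without KO_Basal mouse 2, KO_OL mouse 1 or KO_OL mouse 3, and the glucocorticoid list 3 without KO_Basal mouse 1 or KO_OL mouse 2 and 4 without KO_Basal mouse 2 or KO_OL mouse 3. Correction for GC content and length left 6 clock and 4 glucocorticoid genes called higher. Of 24 cholesterol genes 7 rose (29.2%) and 2 fell (8.33%). *Srebf2*, the transcription factor of the pathway, rose from 162, 162 and 163 CPM to 226, 229 and 232 CPM (0.49 ± 0.06), and the isomerase gene *Idi1* fell by 0.53 ± 0.13. After GC correction 4 of the list were called higher, and *Idi1* was not called (adjusted p = 0.0809).

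Genes of actin remodelling were compared because the study asks about this pathway. *Actb*, cytoplasmic beta-actin, was 672, 679 and 664 CPM in KO_Basal and 1316, 1099.9 and 1203 CPM in KO_OL, a ratio of means of 1.80 and a rise of 0.84 ± 0.09 (adjusted p = 2.55e-05). *Actg1*, gamma-actin, rose by 0.49 ± 0.08, whereas *Acta1* and *Acta2*, the muscle isoforms, overlapped. In WT mice *Actb* rose by 0.46 ± 0.09. Among the regulators the movements were smaller and went both ways. *Cfl2*, a cofilin that severs filaments, fell from 96.9, 93.2 and 89.6 CPM to 56.8, 64.0 and 59.5 CPM (-0.62 ± 0.08, adjusted p = 9.17e-05), and was at -0.17 after correction for GC content and length (adjusted p = 0.0706). *Ssh1*, a phosphatase that activates cofilin, rose from 7.88, 6.96 and 8.79 CPM to 13.9, 13.4 and 14.4 CPM (0.75 ± 0.12). *Ssh3* of the same family had a difference of -0.50 ± 0.19 that was not called (adjusted p = 0.0643), against 0.29 in WT mice. *Rac3*, a small GTPase of neurons, fell from 28.8, 25.8 and 24.5 CPM to 17.5, 19.9 and 18.5 CPM (-0.48 ± 0.13, adjusted p = 0.0145) and was not called without KO_Basal mouse 1 or without KO_OL mouse 1. *Cdc42* fell by 0.31 ± 0.07, and its adjusted p was 0.208 after correction for GC content. *Limk1*, the kinase that inactivates cofilin, was 38.8, 41.5 and 41.3 CPM and 42.7, 42.2 and 42.2 CPM (0.06 ± 0.09, adjusted p = 0.657). *Pak3* (-0.15 ± 0.19), *Pak6* (-0.02 ± 0.14), *Wasl* (-0.01 ± 0.17) and *Wasf3* (0.14 ± 0.07) were not called, nor was any of the 6 PAK kinases. The 10 genes of the Arp2/3 complex, which nucleates branched filaments, had 1 rise (10%, *Arpc1a*) and 2 falls (20%, *Arpc3* and *Arpc5l*). The 12 of the WAVE list had 1 rise (8.33%, *Cyfip2*) and 1 fall (8.33%, *Abi1*). Over all genes 11.2% rose and 12.3% fell. Correction for GC content ended the calls of *Arpc1a*, *Arpc5l*, *Cyfip2* and *Abi1* and left that of *Arpc3* (adjusted p = 0.0118). Correction for GC content and length ended those of *Arpc3*, *Arpc5l*, *Cyfip2* and *Abi1* and left *Arpc1a* at 0.30 (adjusted p = 0.00590). Leaving out any mouse but KO_OL mouse 2 also ended the call of *Arpc1a*.

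Synaptic genes moved by small amounts. Of 16 postsynaptic scaffolds 8 rose (50%, against 11.2% of all genes) and none fell (against 12.3%). Among the rises were *Shank1* from 237, 269 and 259.9 CPM to 406, 377 and 365 CPM (0.58 ± 0.13) and *Shank2* (0.42 ± 0.09). Neither of these 2 was called after correction for GC content and length. Of 31 genes of vesicle release 7 rose (22.6%, against 11.2% of all genes), *Syn1*, a vesicle phosphoprotein, from 429, 429.8 and 452 CPM to 701, 605 and 623 CPM (0.55 ± 0.12). After GC correction 3 scaffolds and 1 vesicle gene were called higher, and after correction for GC content and length 0 and 1. Without KO_Basal mouse 1, 4 scaffolds and 3 vesicle genes were called, without KO_OL mouse 1, 3 and 4, and without KO_Basal mouse 3, 5 scaffolds. The receptor lists were mixed. *Grin1*, the obligate NMDA receptor subunit, rose by 0.44 ± 0.12, *Camk2b* by 0.45 ± 0.14, and *Camk2n1*, an inhibitor of CaMKII, fell from 1744, 1834 and 1404 CPM to 879, 1215 and 875 CPM (-0.75 ± 0.20, adjusted p = 0.0110). None of these 3 was called without KO_OL mouse 1 or without KO_OL mouse 3, and *Grin1* and *Camk2b* were not called after GC correction. *Syndig1*, which places AMPA receptors, rose from 28.1, 31.0 and 26.8 CPM to 42.2, 37.9 and 35.2 CPM (0.41 ± 0.10) and was called under every alternative. Of 15 GABA-A receptor subunits 4 fell (26.7%, against 12.3% of all genes), and after GC correction none was called lower.

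Rises among ion channels and adhesion proteins were about as frequent as over all genes, and falls were less frequent. Of 79 potassium channel genes 9 rose (11.4%, against 11.2% of all genes) and 4 fell (5.06%, against 12.3%). The rises include *Kcne2* and *Kcnj13*, at 3.04 and 2.99, which are also on the choroid plexus list described below. *Kcnk12*, a channel of the tandem pore family, went from 4.83, 4.75 and 6.41 CPM to 9.97, 9.67 and 8.78 CPM (0.73 ± 0.12, adjusted p = 6.84e-04) and *Kcnh1*, an ether-a-go-go channel, from 58.6, 55.7 and 57.8 CPM to 86.7, 87.1 and 87.6 CPM (0.60 ± 0.12), both called under every alternative. *Kcnip4*, an auxiliary subunit of A-type channels, fell by 0.51 ± 0.11 and was not called after GC correction, which left 4 rises and 1 fall in the list, against 15 and 7 when the fit held only the groups compared. The rises numbered 3 without KO_Basal mouse 1 or KO_OL mouse 3, 4 without KO_OL mouse 1, 5 without KO_Basal mouse 2 or 3 and 6 without KO_OL mouse 2. Of 66 protocadherins, adhesion proteins of which many share exons, 7 rose (10.6%) and 2 fell (3.03%). *Pcdh1* rose by 0.68 ± 0.17 and *Pcdh15* was at -0.63 ± 0.17. After GC correction 1 protocadherin was called higher and with only the groups compared in the fit 17 were, and the count was 1 without KO_Basal mouse 2, 3 without KO_Basal mouse 1, KO_OL mouse 1 or KO_OL mouse 3, 4 without KO_OL mouse 2 and 7 without KO_Basal mouse 3. Neither *Pcdh1* after GC correction nor *Pcdh15* without KO_Basal mouse 1 or KO_OL mouse 1 was called. Of 24 histone deacetylases and methyltransferases 6 rose (25.0%, against 11.2% of all genes) and 1 fell (4.17%, against 12.3%). *Hdac4*, a deacetylase that moves between cytoplasm and nucleus with activity, went from 16.6, 14.9 and 16.4 CPM to 29.5, 33.2 and 30.1 CPM (0.91 ± 0.09, adjusted p = 1.86e-05) and rose by 0.70 in WT mice. *Kmt2d*, a methyltransferase of enhancers, rose by 0.74 ± 0.16 and *Setd1b*, one of promoters, by 0.58 ± 0.11. The list had 3 calls higher after GC correction, without KO_Basal mouse 1 and without KO_OL mouse 1.

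Most nuclear noncoding RNAs listed, and 20 of 43 genes for RNA-binding proteins of splicing, were lower after training. Of 11 nuclear noncoding RNAs 8 fell (72.7%, against 12.3% of all genes) and none rose (against 11.2%). Their median was -0.92 (-0.26 in WT mice). *Malat1*, an abundant RNA of nuclear speckles, went from 364, 369.8 and 627 CPM to 139, 205 and 220.4 CPM (-1.25 ± 0.26, adjusted p = 0.00299), and *Meg3*, an imprinted noncoding RNA, from 998, 1072 and 1488 CPM to 385, 607 and 702 CPM (-1.09 ± 0.31), the latter not called without KO_Basal mouse 3 or without KO_OL mouse 1. *Gas5*, the host of many small nucleolar RNAs, went from 114, 123 and 116 CPM to 76.7, 76.6 and 81.0 CPM (-0.58 ± 0.08). Without KO_OL mouse 1, 5 of the list were called. *Gas5* and *Rian* overlap small RNA genes on their own strand and *Snhg14* overlaps *Ube3a* on the other, so their reads can be shared, and *Rian* and *Snhg14* were not called after GC correction. Of 43 hnRNP, SR and snRNP genes 20 fell (46.5%, against 12.3% of all genes) and 2 rose (4.65%, against 11.2%). *Hnrnpdl* went from 216, 205 and 228 CPM to 141, 145 and 133 CPM (-0.63 ± 0.07, adjusted p = 2.78e-05) and *Srsf5*, a splicing factor that regulates its own transcript, from 204, 218 and 222 CPM to 129, 133 and 142 CPM (-0.67 ± 0.09). These falls were shared with WT mice, at -0.45 and -0.56. After GC correction 12 of the 43 were called lower. Of 322 *Zfp* genes 64 fell (19.9%, against 12.3% of all genes) and 27 rose (8.39%, against 11.2%), and 14 fell after GC correction. Without KO_Basal mouse 1, 17 *Zfp* genes rose. *Zfp867* fell by 0.94 ± 0.14 and *Zfp169* rose by 0.88 ± 0.09, and both were called under every alternative.

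The 12 largest falls mixed coding and noncoding genes. They ran from -1.94 (*AF357359*) to -1.14 (*Rnpc3*) and included *AF357359*, which was not matched to the annotation, and the small RNA genes *Mir703* and *Snord64*, which poly-A selection does not target. *Gt(ROSA)26Sor*, a ubiquitous noncoding transcript, went from 13.6, 15.2 and 15.03 CPM to 3.59, 3.06 and 4.40 CPM (-1.74 ± 0.14, adjusted p = 8.35e-06). It overlaps *Thumpd3* on the other strand, and whether the counting used strand is not given in the sources used here. *Clec2d*, a lectin, went from 11.3, 10.9 and 12.6 CPM to 3.44, 3.77 and 3.23 CPM (-1.50 ± 0.14), *Rnpc3*, a protein of the minor spliceosome, from 24.2, 24.8 and 29.1 CPM to 9.51, 12.1 and 12.4 CPM, and *Wsb1*, an adaptor of ubiquitin ligases, from 73.5, 71.9 and 88.3 CPM to 29.0, 36.8 and 37.9 CPM. The others were *Capn11*, *Malat1*, *Snhg11*, *C730002L08Rik* and *4930447C04Rik*, of which *Snhg11* was not called without KO_OL mouse 1 and *C730002L08Rik* not after GC correction.

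Ribosomal and mitochondrial genes that were called in KO mice were nearly all lower. Of 76 cytosolic ribosomal protein genes 18 fell (23.7%, against 12.3% of all genes) and none rose, with a median of -0.27 against 0.06 in WT mice. The WT mice were far apart, with a summed level of the list of 15356 to 15761 CPM in WT_Basal and 12631 to 20543 CPM in WT_OL. With limma 10 of the 76 had an unadjusted p under 0.05 for the difference between genotypes, near the 12.4% of all genes. *Rps27a*, which also encodes ubiquitin, went from 225, 251 and 239 CPM to 156, 144 and 148 CPM (-0.67 ± 0.12, adjusted p = 0.00104) and *Rpl31* from 198, 228 and 201 CPM to 133, 135 and 132 CPM (-0.64 ± 0.13). Of 74 mitochondrial ribosomal proteins 10 fell (13.5%), near the 12.3% of all genes. Of 77 genes of oxidative phosphorylation 1 rose (1.30%, against 11.2% of all genes) and 12 fell (15.6%). Among these *Cox6c*, a subunit of complex IV, fell from 231, 284 and 277 CPM to 170.2, 165 and 165 CPM (-0.65 ± 0.12). The ribosomal count was 11 without KO_Basal mouse 2, and 44 when the fit held only the groups compared. The count for oxidative phosphorylation was 3 without KO_Basal mouse 2, 5 without KO_OL mouse 3, 6 without KO_Basal mouse 1 and 7 without KO_OL mouse 2, and 30 in the smaller fit. The mitochondrial ribosomal count was 3 without KO_Basal mouse 1, 4 without KO_Basal mouse 2, 5 without KO_OL mouse 3 and 22 in the smaller fit. These are short transcripts, with a median length of 1076 bases in the cytosolic list and 3396 over all genes, and after correction for GC content and length the cytosolic list had 16 falls and 2 rises with a median of -0.12. After the same correction 4 mitochondrial ribosomal and 4 oxidative phosphorylation genes were called lower and 11 of the latter higher. Of 42 proteasome genes 4 rose (9.52%) and 7 fell (16.7%), near the 11.2% and 12.3% of all genes. After that correction 8 proteasome genes rose and 2 fell. *Psmd2*, a subunit of the regulatory cap, rose from 214, 223 and 215 CPM to 298, 274 and 271 CPM (0.37 ± 0.07), and *Psmc6*, an ATPase of the cap, fell by 0.40 ± 0.06 but was at 0.10 after the correction. Leaving out any 1 of the 6 mice left 2 proteasome rises, and without KO_Basal mouse 2, 4 were called lower.

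Among glial markers, 6 of 16 microglial genes fell (37.5%, against 12.3% of all genes) and none rose. When the fit held only the groups compared 11 fell and 1 rose. *P2ry12*, the purinergic receptor of resting microglia, went from 64.1, 62.5 and 57.1 CPM to 32.0, 33.8 and 30.4 CPM (-0.91 ± 0.08, adjusted p = 1.22e-05), and all trained mice were below all untrained ones. *Ctss*, a lysosomal protease, went from 93.9, 96.4 and 89.2 CPM to 62.3, 69.5 and 60.4 CPM (-0.54 ± 0.10) and *Aif1* from 7.25, 7.69 and 6.41 CPM to 4.08, 4.45 and 4.26 CPM (-0.62 ± 0.16). *Tmem119*, another microglial marker, overlapped (0.14 ± 0.12). In WT mice *P2ry12* fell by 0.52 ± 0.08, but of the 16 genes 2 were called higher and 1 lower. The median of the list was 0.02 in WT and -0.29 in KO mice. In bulk tissue fewer microglia and less RNA per cell cannot be told apart. Of 14 endothelial markers 4 fell (28.6%) and 2 rose (14.3%, against 11.2% of all genes). Among the falls was *Cldn5*, a tight junction protein of the blood-brain barrier, from 27.9, 28.5 and 33.7 CPM to 19.1, 17.1 and 19.7 CPM (-0.66 ± 0.15). No endothelial marker rose without KO_Basal mouse 1, KO_Basal mouse 3, KO_OL mouse 2 or KO_OL mouse 3, and 1 did without KO_Basal mouse 2 or after GC correction. The astrocyte list of 15 genes had 1 rise (6.67%), the glutamate transporter gene *Slc1a2* (0.41 ± 0.10). It had 2 falls (13.3%, near the 12.3% of all genes), *S100b* (-0.62 ± 0.14) and *Aqp4* (-0.52 ± 0.11). *Aqp4* was not called after GC correction and *Slc1a2* not after correction for GC content and length. *Sox2*, a factor of neural stem cells and astrocytes, fell from 42.8, 44.4 and 46.8 CPM to 24.6, 28.3 and 35.6 CPM (-0.60 ± 0.11). None of the 15 oligodendrocyte, 8 oligodendrocyte precursor and 12 smooth muscle and pericyte genes was called. Of 21 meningeal, collagen and laminin genes 2 rose (9.52%) and 1 fell (4.76%), and none of them rose after correction for GC content or for GC content and length. Without KO_Basal mouse 1, KO_Basal mouse 2 or KO_OL mouse 3 none rose, and without KO_OL mouse 1, 1 did. Markers of neuron types rose at shares near the 11.2% of all genes. They were 1 of 12 for inhibitory neurons (8.33%), 1 of 10 for CA1 (10%, *Fibcd1*, 0.82 ± 0.23) and 1 of 8 for CA3 (12.5%, *Grik4*, 0.53 ± 0.14). Falls were 2 of 12 for dentate granule neurons (16.7%, *Calb1*, -0.49 ± 0.15, and *Tdo2*, -0.55 ± 0.18) and 1 of 16 neuropeptides (6.25%, *Vip*, -0.76 ± 0.26), against 12.3% of all genes. After correction for GC content and length none of these 6 was called.

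The largest rises were genes of the choroid plexus, the epithelium that makes cerebrospinal fluid and borders the hippocampus in the ventricle. The 12 largest, from 2.65 (*Enpp2*) to 5.05 (*Ttr*), were *Ttr*, *Slc4a5*, *F5*, *Clic6*, *Aqp1*, *Folr1*, *Cldn2*, *Kcne2*, *Tmem72*, *Kcnj13*, *1500015O10Rik* and *Enpp2*, and all of these except *1500015O10Rik* are on the list of choroid plexus markers. All 18 markers of the list were called higher (against 11.2% of all genes), with a median of 3.01 against 0.19 in WT mice. *Ttr*, the transport protein of thyroid hormone in the fluid, was 23.1, 597 and 50.9 CPM in KO_Basal and 2173, 2967 and 4232 CPM in KO_OL (5.05 ± 1.57, adjusted p = 0.0291). *Folr1*, a folate receptor, went from 1.24, 4.37 and 0.879 CPM to 21.6, 25.0 and 37.0 CPM (3.32 ± 0.86). *Otx2*, the homeobox factor of this epithelium, went from 0.986, 2.72 and 1.497 CPM to 10.3, 12.1 and 16.5 CPM. The summed level of the 18 genes was 261, 1202 and 343 CPM in KO_Basal, 3800 to 7240 CPM in KO_OL, 1531 to 6715 CPM in WT_Basal and 3274 to 5083 CPM in WT_OL, so it was the untrained KO mice that were low, and no marker was at 0. Over the 3 WT mice after reversal learning the sum ran from 249 to 13205 CPM. The part that the amount of choroid plexus in a sample has in these rises, and in other genes this epithelium expresses, was not tested. Calls of the list numbered 4 with voom weights on the reads and 11 on CPM floored at 1. They numbered 2 without KO_Basal mouse 1 and 2 without KO_OL mouse 3, 3 without KO_Basal mouse 3, 7 without KO_OL mouse 2 and 10 without KO_OL mouse 1. Of 16 ependymal and cilia genes, the neighbouring lining of the ventricle, none was called, and 7 rose when the fit held only the groups compared.

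**Figure D3:**
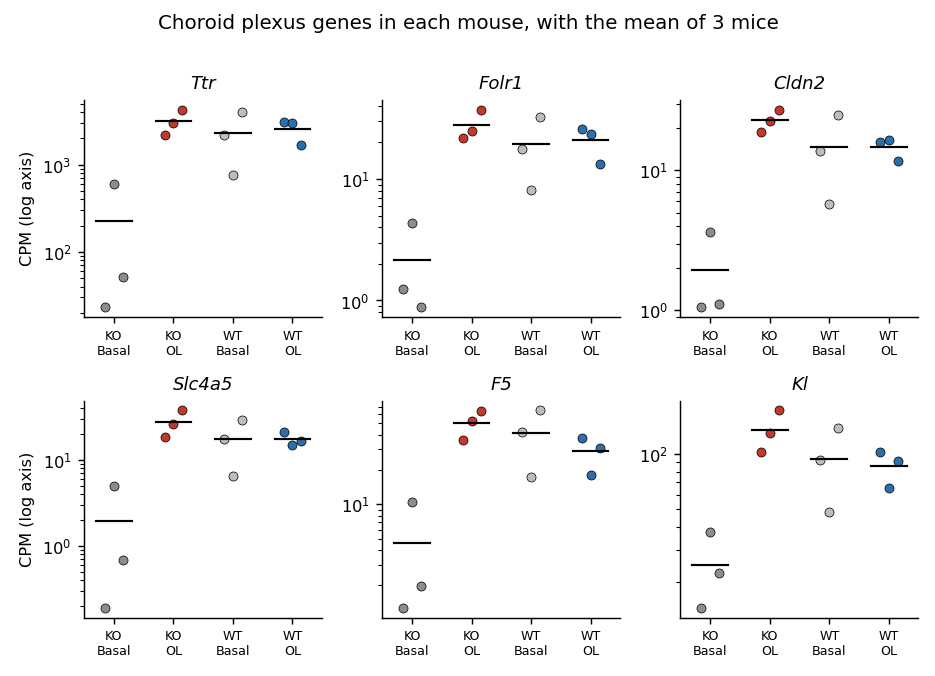
CPM on a log axis of 6 choroid plexus genes in each mouse of the 4 groups, with each point 1 mouse and the bar the mean of 3. The untrained KO mice are lowest for every gene, *Ttr* at 23.1, 597 and 50.9 CPM, and the trained KO mice lie in or above the range of the WT mice.

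Whether the change with training differed between genotypes was tested gene by gene. No gene passed at an adjusted p under 0.05 with limma (0% of genes; lowest adjusted p = 0.368), while 1908 genes (12.4%) had an unadjusted p under 0.05. Leaving out 1 WT mouse, WT_OL mouse 3, gave 907 genes, 572 with a larger and 335 with a smaller value in KO mice, and leaving out any other mouse of these 4 groups gave 0. WT_OL mouse 3 had the highest mapping rate of its group in the paper, and the part of this in the count was not tested. The genes with the smallest p included *Fos*, *Capn11*, *Ranbp3l*, *Hspa1a* and *Banp*, each at an adjusted p of 0.368. *Hspa1a* rose by 1.63 ± 0.34 more in KO than in WT mice (unadjusted p = 1.69e-04). *Capn11*, a calpain protease, was 4.99, 3.23 and 2.25 CPM in KO_Basal and 0.521, 0.401 and 0.280 CPM in KO_OL, against 0.266, 0.200 and 1.496 CPM and 1.33, 1.45 and 0.955 CPM in the WT groups (-2.16 ± 0.43, unadjusted p = 1.31e-04). *Ranbp3l* fell in KO mice from 12.2, 8.89 and 13.9 CPM to 4.48, 5.19 and 4.71 CPM and was 12.7, 9.49 and 7.64 CPM and 11.1, 11.7 and 8.22 CPM in the WT groups. *Banp*, a nuclear matrix protein, rose in KO mice from 22.3, 23.8 and 23.2 CPM to 41.8, 36.8 and 38.1 CPM and was 20.9, 23.1 and 26.5 CPM and 23.2, 26.2 and 26.7 CPM in the WT groups. Of the lists, 10 of 21 heat shock genes, 7 of 17 ER genes, 9 of 23 immediate early genes and 11 of 18 choroid plexus genes had an unadjusted p under 0.05 for the difference. Such shares were not particular to these lists. They held for 4 of 8 CA3 markers, 6 of 14 endothelial markers, 5 of 12 NMDA receptor and CaMKII genes and 7 of 21 meningeal genes. Of 10 Arp2/3 genes and of 15 GABA-A receptor subunits the count was 0.

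**Figure D4:**
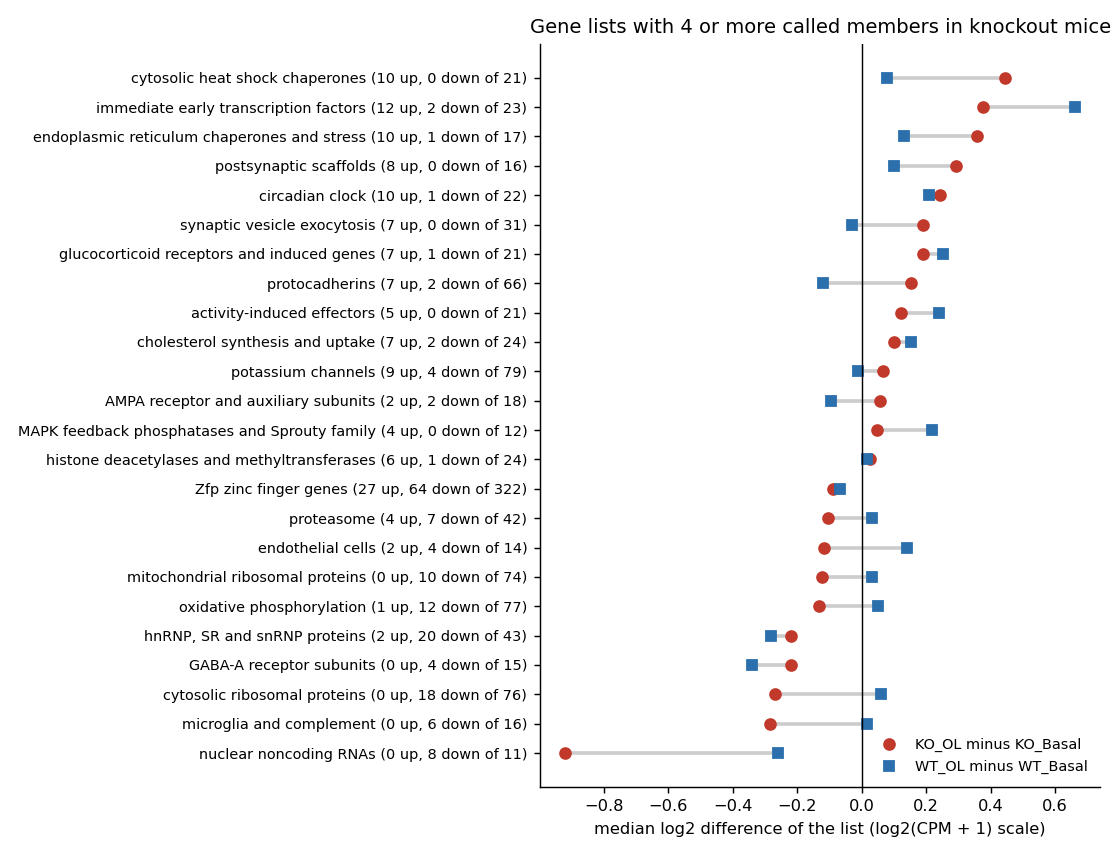
Median log2 difference with training of each gene list with 4 or more called members in KO mice, red circles for KO and blue squares for WT mice, with the counts of called members beside the name; the choroid plexus list, with a KO median of 3.01, is left out. Heat shock and ER chaperones lie higher in KO than in WT mice, at 0.44 and 0.08 and at 0.36 and 0.13, immediate early factors lower, at 0.38 and 0.66.

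The direction of the calls moved with the base composition of the transcripts. Genes called higher had a median GC content of 54.4%, genes called lower 43.0% and all genes 49.8%. With the genes in 5 equal bins of GC content, 1.71% of the lowest bin were called higher and 36.0% lower, and 22.2% of the highest bin were called higher and 2.10% lower. In 5 bins of transcript length, 3.91% were called higher in the shortest and 17.1% in the longest. The trend lay in the libraries: the deviation of a library from the mean of all correlated with GC content over genes, which are not independent, at -0.31 to -0.29 in KO_Basal and 0.16 to 0.30 in KO_OL, and at -0.47 to -0.32 in WT_Basal and 0.08 to 0.34 in WT_OL. Correlated over genes, the KO and WT differences gave a Pearson r of 0.42, and of 0.26 after each library was corrected for its GC trend. After that correction 2343 genes were called in KO mice, 1187 higher and 1156 lower. The part of this trend in the changes given here was not tested. Of the genes named above, the heat shock and ER genes called, *Fosb*, *Egr4*, *Egr1*, *Per1*, *Per2*, *Actb*, *Malat1* and *P2ry12* were called with and without the correction. Many others were not: of 159 named genes called without it, 109 were still called after it, 49 were no longer called and 1 had the opposite sign. After correction for GC content and length 103 were still called, 53 were no longer called and 3 had the opposite sign.

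**Figure D5:**
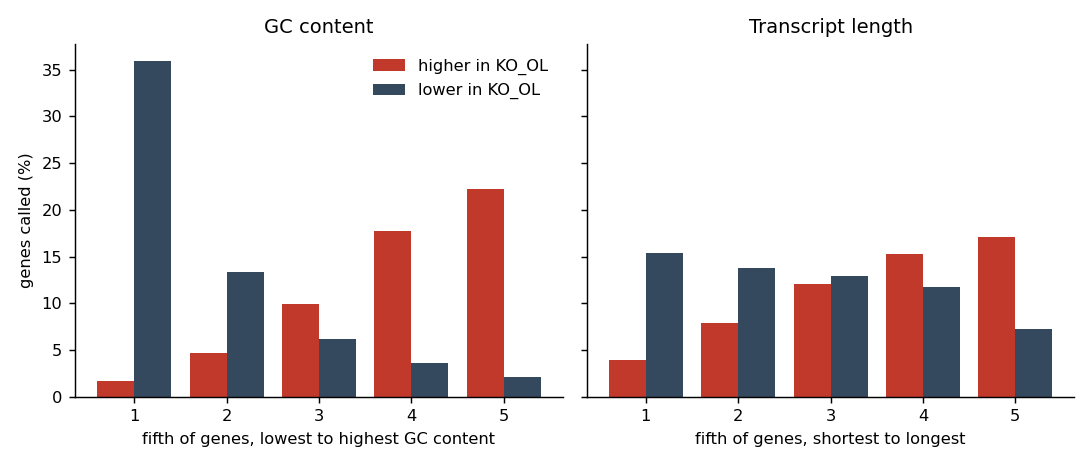
Share of genes called higher (red) and lower (dark) in KO_OL in each of 5 equal bins of genes by GC content of the longest transcript (left) and by its length (right), as bars from 0. The share called lower drops from 36.0% to 2.10% from the lowest to the highest GC bin, and the share called higher rises from 1.71% to 22.2%.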

How the data were processed

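Hippocampal RNA of *Ccny* KO and WT mice was sequenced after poly-A selection. The authors aligned reads to mm10 with STAR 2.5.1, counted them on genes, normalized with TMM in edgeR 3.12.1 and deposited log2 values. The methods describe CPM floored at 1, but the deposited log2 values are log2(CPM + 1), since all recovered values were whole reads within 0.05. Libraries held 29248557 to 37915576 reads on listed genes.

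Groups followed the labels. limma 3.58.1 in R 4.3.3 was fitted to the 18 libraries with 1 mean per group (lmFit, eBayes with trend, 12 residual degrees of freedom) and tested on simulated data. Tests were two-sided with Benjamini-Hochberg adjustment over 15329 genes. The test behind the criteria of the study is not given in the sources used here. Lists were described by counts and medians. Genes named were *Ccny*, the 12 largest rises and 12 largest falls (adjusted p under 0.05, mice not overlapping, mean log2 value of at least 1 in the higher group), up to 4 members with the smallest p of each of 48 lists, 6 genes with the smallest p for the genotype difference, and 9 cytoskeletal genes the study names. A few were added for their roles after their values were seen (*Arc*, *Npas4*, *Bdnf*, *Hspa8*, *Hspb1*, *Bag3*, *Hsp90aa1*, *Xbp1*, *Atf4*, *Arntl*, *Fkbp5*, *Meg3*, *Otx2*, *Tmem119*). A few genes that these rules name are not reported here. The comparison, lists and rules were chosen with earlier results of these data known. GC content and length came from the longest GENCODE M21 transcript on GRCm38, found for 15223 genes. Alternatives were the floored scale, a pseudocount of 0.5, a mean log2 value of at least 2, only the groups compared, a replicate block, voom on the recovered reads, quantile normalization, GC correction (loess, span 0.5) and leaving out each mouse. Correction for GC and length was added after seeing the data. Whether mice of a group came from separate litters is not given. Tables were handled with pandas 2.3.3 and numpy 2.4.6 in Python 3.11.15.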

Additional observations from a re-analysis of the deposited data

How the results depend on the processing

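The 3600 genes called in KO mice numbered 2343 after GC correction and 2399 after correction for GC content and length, an alternative chosen after seeing the data, and 3468 to 5289 under the other alternatives that kept all mice. Leaving out 1 mouse gave 2228 to 2929. The 837 genes past the study criteria numbered 539, 481 and, with voom on the recovered reads, 1352, and 738 to 954 without 1 mouse. The 1457 WT calls numbered 345 after GC correction, 571 after GC and length correction, and 629 to 2496 without 1 mouse. For the difference between KO and WT mice, CPM floored at 1 gave 1 gene and leaving out 1 mouse 0 to 907. After GC and length correction the log2 difference was 0.003749 for *Atp5s*, 0.1018 for *Psmc6* and -0.02516 for *Tesk1*, and after GC correction 0.007092 for *Psmc6*, each the opposite sign of the uncorrected value, and the cause was not tested. Of 160 named genes called, 121 to 143 were still called without 1 mouse. Of the 159 with a GC content, 109 were still called after GC correction and 103 after correction for GC content and length. Same-numbered mice did not deviate together (correlations -0.263, -0.0303 and -0.0932), so the numbers were not taken as pairs, and with a replicate block 3620 genes were called in KO mice, 1377 in WT mice and 839 by the study criteria. A single read was worth 0.0280 to 0.0325 CPM, which bounds the lowest level measurable.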
